A study of Mus musculus with 18 samples.

Results

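The nuclear genes for the subunits of respiratory chain complexes I to IV were described in sorted tumor cells of 2 mouse pancreatic tumor lines, 6419c5 and 6694c2. A gene was included when its symbol began with Nduf and a letter a, b, c, s or v followed by a digit (complex I), was Sdha, Sdhb, Sdhc or Sdhd (complex II), began with Uqcr (complex III), or began with Cox4 to Cox8 (complex IV), and when its mean over the 18 libraries was at least 1 TPM. Of 24493 genes in the table, 67 had such a symbol and 61 reached the minimum: 35 of complex I, 4 of complex II, 8 of complex III and 14 of complex IV. Ndufa4, whose protein is now placed in complex IV despite its symbol, and its relative Ndufa4l2 were counted with complex IV. The lowest gene inside the minimum was Ndufa4l2 at 1.94 TPM, and the highest gene outside it was Cox6a2 at 0.601 TPM. TPM, the share of transcripts in a library, is a level scaled by transcript length and to a fixed library total, so levels can be compared between genes.

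The 6 groups, with 3 libraries each, were 6419c5 WT, 6419c5 Kdm3aKO1, 6419c5 Kdm3aKO2, 6694c2 WT, 6694c2 Kdm3aKO1 and 6694c2 Kdm3aKO2. Kdm3a encodes an enzyme that removes methyl groups from histone H3, and the knockout groups asked what its loss changes in the tumor cells. All cells were of strain C57BL/6, had grown as subcutaneous implants without treatment, and were sorted before RNA extraction; the animals' age, the implanted host and the sort marker are not given in the sources used here. Each knockout group was 1 clone, so its 3 libraries measured that clone, and the 2 clones of a line were compared with the same 3 WT libraries. The labels do not tie a group's 3 libraries to different animals, so p-values measure the spread between these libraries only, which may be technical.

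Complex I takes electrons from NADH and complex II, which is also the succinate dehydrogenase of the citric acid cycle, takes them from succinate; both pass them to coenzyme Q. Complex III moves them to cytochrome c and complex IV to oxygen, and complexes I, III and IV pump protons that drive ATP synthase. All subunits of complex II are encoded in the nucleus, whereas complexes I, III and IV also hold core subunits encoded in mitochondrial DNA, and those 13 transcripts, the ATP synthase ones included, were not analysed here. The transcription factors NRF1 and GABP (also called NRF2) are known to bind upstream of many nuclear genes of this set.

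Promoter windows (250 bases before to 50 after the annotated start, RefSeq, build GRCm38.p6) were matched for 50 of the 61 subunit genes. The 5 printed here were picked from the comparison of the WT groups of the 2 lines. They are the subunits of complexes I, III and IV with the largest differences among those with a window, and Sdhb for complex II. Sdha was added as the complex II subunit that did not move with Sdhb. Capitals mark matches to the NRF1 motif (GCGCA, any base N, then GCGC) or to the GABP motif CCGGAAG, searched on both strands, so that the second also stands as CTTCCGG.
Ndufb4: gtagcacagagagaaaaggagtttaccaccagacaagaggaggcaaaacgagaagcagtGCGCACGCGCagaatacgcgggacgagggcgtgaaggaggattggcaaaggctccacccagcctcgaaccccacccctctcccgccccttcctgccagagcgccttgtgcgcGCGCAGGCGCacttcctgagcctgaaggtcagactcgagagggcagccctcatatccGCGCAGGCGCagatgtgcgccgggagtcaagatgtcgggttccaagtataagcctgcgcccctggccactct
Sdha: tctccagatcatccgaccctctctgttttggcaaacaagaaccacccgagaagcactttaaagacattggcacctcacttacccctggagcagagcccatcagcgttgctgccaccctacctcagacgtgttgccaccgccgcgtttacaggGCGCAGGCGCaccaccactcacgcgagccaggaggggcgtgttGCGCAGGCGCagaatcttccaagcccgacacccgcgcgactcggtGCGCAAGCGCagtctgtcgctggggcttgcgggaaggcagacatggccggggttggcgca
Sdhb: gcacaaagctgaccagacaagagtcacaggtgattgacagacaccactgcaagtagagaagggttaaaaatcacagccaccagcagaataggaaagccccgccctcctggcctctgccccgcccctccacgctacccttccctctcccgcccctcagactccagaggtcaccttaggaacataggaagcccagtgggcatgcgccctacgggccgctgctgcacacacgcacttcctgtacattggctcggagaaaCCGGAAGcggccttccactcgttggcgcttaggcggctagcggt
Uqcr11: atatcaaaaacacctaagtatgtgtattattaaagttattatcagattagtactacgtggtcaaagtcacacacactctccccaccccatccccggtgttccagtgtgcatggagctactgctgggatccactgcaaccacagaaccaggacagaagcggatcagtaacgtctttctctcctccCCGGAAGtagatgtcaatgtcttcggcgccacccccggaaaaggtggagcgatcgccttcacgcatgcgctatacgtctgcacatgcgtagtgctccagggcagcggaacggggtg
Cox6a1: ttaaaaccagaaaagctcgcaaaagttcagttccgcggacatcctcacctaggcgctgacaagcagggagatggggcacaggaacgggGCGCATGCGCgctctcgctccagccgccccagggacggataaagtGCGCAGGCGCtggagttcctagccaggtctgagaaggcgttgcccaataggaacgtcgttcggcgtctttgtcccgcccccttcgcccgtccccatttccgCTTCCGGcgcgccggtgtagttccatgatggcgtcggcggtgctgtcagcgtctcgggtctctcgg
The windows lie at chr16:37654319-37654618 on the minus strand for Ndufb4, chr13:74350191-74350490 on the minus strand for Sdha, chr4:140961021-140961320 on the plus strand for Sdhb, chr10:80406772-80407071 on the minus strand for Uqcr11, and chr5:115348909-115349208 on the minus strand for Cox6a1. Ndufb4 and Sdha each held 3 NRF1 matches and no GABP match. Sdhb and Uqcr11 each held 1 GABP match and no NRF1 match, and Cox6a1 held 2 NRF1 matches and 1 GABP match. Over the whole set the NRF1 motif was in 11 of 50 windows (22.0%), against 5.19% of 27025 genes with a window. The GABP motif was also in 11 of 50 (22.0%), against 9.93% of all genes, and at least 1 of the motifs was in 20 of 50 (40.0%), against 14.0%. A match is a description of the letters and not a measured site.

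Subunit transcripts were abundant in every library. Complex IV held the highest members, led by Cox4i1 (chr8:120668222-120674207), a regulatory subunit, at a mean of 913 TPM over the 18 libraries, Cox6a1 at 888 TPM and Cox8a at 783 TPM. The highest member of complex I was Ndufa7 at 339 TPM and the lowest Ndufa11 at 25.7 TPM. In complex II the order ran from Sdhc at 176 TPM to Sdha at 120 TPM, and in complex III from Uqcrh at 411 TPM to Uqcrq at 65.6 TPM. The members together made up 0.799% to 1.66% of a library's TPM.

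The summed level of the members separated the lines more than it separated knockout from WT. The 61 genes summed to 14276, 13808 and 16285 TPM in the 6419c5 WT libraries and to 12337, 10746 and 7994 TPM in 6694c2 WT, so the WT groups did not overlap. The 6419c5 knockout libraries lay at 15902, 16617 and 15760 TPM in KO1 and at 14143, 16465 and 15670 TPM in KO2; replicate 2 of each clone was above every WT library and the other 4 were within the WT range. The 6694c2 knockout libraries lay at 12790, 11994 and 13310 TPM in KO1 and at 12035, 12360 and 12205 TPM in KO2, around the highest of their WT libraries. All 6 of these 6694c2 knockout sums were below the lowest 6419c5 sum, and 39 of the 61 members had a lower mean in the 6694c2 knockouts than in 6419c5 WT.

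**Figure D1:**
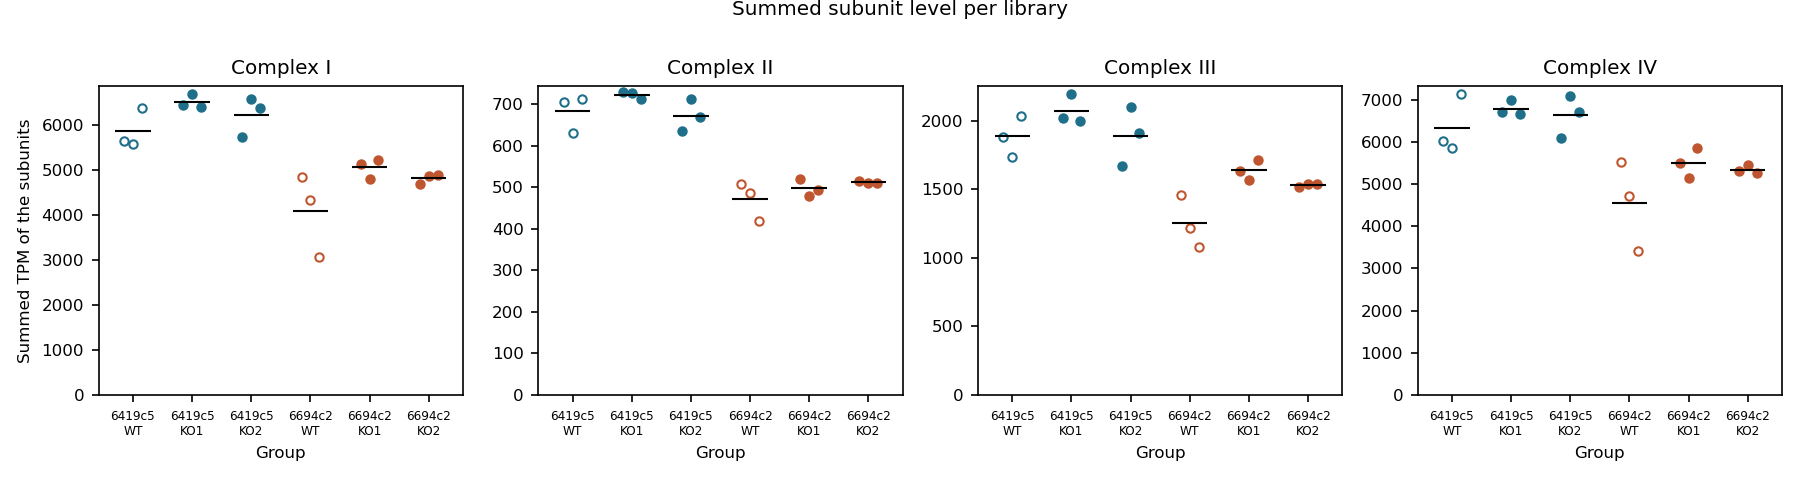
Summed TPM of the subunit genes of each complex (y axis, from 0) in the 6 groups (x axis); each point is a library, open for WT and filled for knockout, and the line is the mean of 3 libraries. The 6694c2 libraries lie below the 6419c5 libraries in complexes I and II and, but for an overlap of 6694c2 KO1 with 6419c5 WT or KO2, in complexes III and IV; the lowest point in each complex is 6694c2 WT replicate 3.

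By complex, the mean summed level was 5883 ± 448 TPM in 6419c5 WT and 4089 ± 909 TPM in 6694c2 WT for complex I (SD, n = 3 for each value here). It was 683 ± 45.7 and 471 ± 45.8 TPM for complex II, 1885 ± 148 and 1251 ± 193 TPM for complex III, and 6338 ± 699 and 4548 ± 1062 TPM for complex IV. In each complex the WT groups did not overlap. In the 6694c2 clones complex I stood at 5065 ± 220 TPM in KO1 and 4826 ± 105 TPM in KO2, overlapping the WT range of 3083 to 4850 TPM, and complex II at 498 ± 21.1 and 512 ± 2.26 TPM, where WT ranged from 420 to 508 TPM. For complex III the clones' means were 1638 ± 75.1 and 1530 ± 13.4 TPM, and every knockout library was above the highest WT library, at 1459 TPM. The complex III sums include Uqcrb, which varied widely between libraries. As log2(TPM + 1) minus its mean, Uqcrb stood at -0.38 in that WT library, replicate 1. It stood at 0.10 to 0.75 in KO1 and at 0.41 to 0.74 in KO2. With Uqcrb taken out of the sums, the KO2 libraries overlap WT, while those of KO1 stay above it. The separation of KO2 therefore rests on this gene. These sums are descriptions and carry no test.

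A few facts of the libraries bear on these values. Kdm3a transcript remained in the knockout groups, and which part of the gene was deleted is not given in the sources used here, so its level does not check the labels. It ran from 24.1 to 38.2 TPM in 6419c5 WT, 21.6 to 24.6 in KO1, 12.3 to 18.8 in KO2, 38.9 to 67.6 in 6694c2 WT, 26.2 to 29.8 in KO1 and 25.2 to 30.2 in KO2, and 6419c5 KO1 was the clone in which it did not pass (log2 change -0.45, limma adjusted p = 0.299). The highest of these values belonged to 6694c2 WT replicate 3, which also had the lowest summed member level. It was the lowest of its group for 51 of the 61 members, and the small-RNA locus Mir6236 took 17.4% of its TPM (6.04% to 17.4% over the 18 libraries). The keratin Krt18 was high in every library (2141 to 3204 TPM), but the 10 epithelial tumor markers as a list differed by group: their mean log2(TPM + 1) ran from 8.29 to 8.51 in 6419c5 WT, 6.59 to 6.99 in 6694c2 WT and 5.78 to 5.97 in 6694c2 KO2. The 10 macrophage markers summed to between 308 and 8753 TPM. In such bulk samples fewer cells of a type and less RNA per cell cannot be told apart. Besides this library, 6419c5 WT replicate 3, 6694c2 KO1 replicate 1 and 6694c2 KO2 replicate 3 had stood apart in earlier results of these data, and these 3 were left out together in an alternative chosen after seeing the data; the counts without them were 29 members lower between the WT groups and 11 higher in the 6694c2 knockouts. Near-identical copies exist for 11 of the 61 genes and 17 overlap an exon of another gene, and whether the counting used strand is not given in the sources used here.

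The clearest pattern was between the lines. Of the 61 subunit genes 38 were lower in 6694c2 WT than in 6419c5 WT and none was higher, by limma on log2(TPM + 1) with a Benjamini-Hochberg adjusted p under 0.05 over 13422 genes. Among all genes tested 32.2% were lower and 14.1% higher in that comparison. The lower members were 23 of 35 in complex I, 3 of 4 in complex II, 4 of 8 in complex III and 8 of 14 in complex IV. The members' median log2 difference was -0.48, against -0.22 for all genes. All 3 values of 6694c2 WT lay below all 3 of 6419c5 WT for 30 members and above them for none, against 32.6% and 14.2% of all genes.

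The median of all genes was itself below 0, and the counts moved with the scaling. When libraries were scaled by median of ratios, which moved the median of all genes to -0.02, the counts were 24 members lower and 3 higher, against 21% lower and 21.7% higher among all genes. Quantile normalization gave 29 lower and 3 higher, against 19.1% and 24.2% of all genes, and removing the 20 most abundant genes gave 37 lower and 1 higher, against 28.1% and 16.7%. Without 6694c2 WT replicate 3 the counts were 28 lower and 2 higher, and the members' median was -0.34 against -0.27 for all genes. The members' median minus that of all genes was -0.26 as analysed, -0.24 with median of ratios and -0.37 with quantile normalization, but -0.07 without that library. Of the 38 calls 24 held in all 28 alternatives, among them every gene named by value in the next 4 paragraphs as lower except Cox4i1 and Cox7a2.

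**Figure D2:**
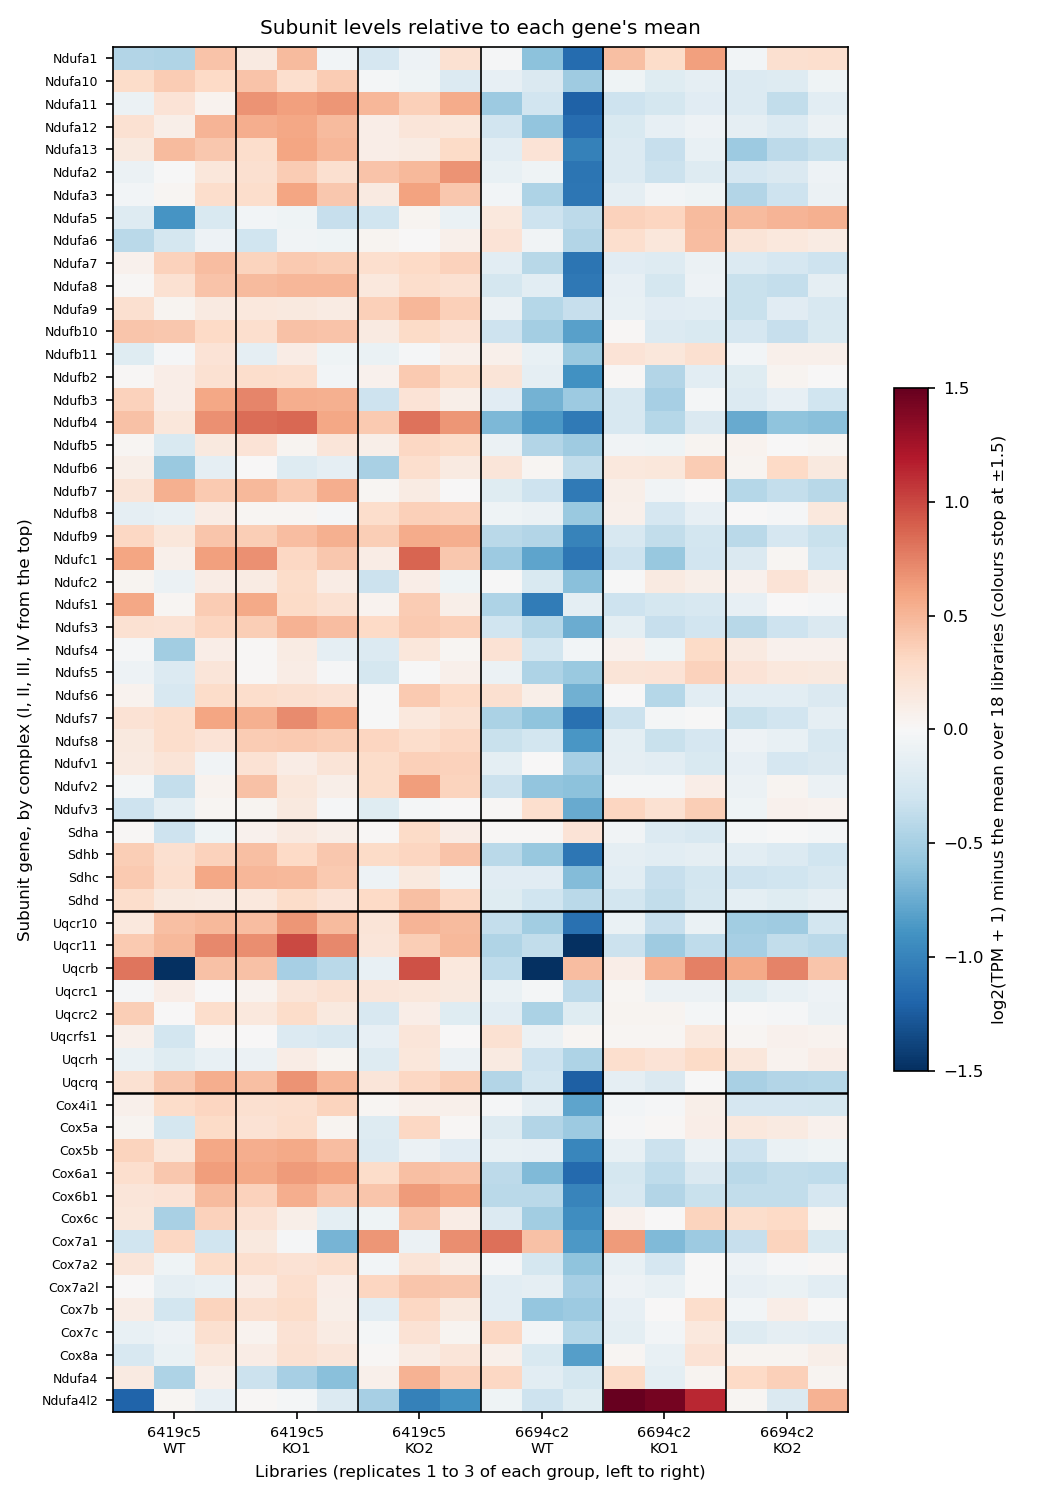
Level of 60 of the subunit genes (rows, by complex) in each library (columns, 3 per group), as log2(TPM + 1) minus the gene's mean over the 18 libraries, with colours stopping at 1.5 in either direction. Most rows are red in the 9 libraries of 6419c5 and blue in those of 6694c2; 6694c2 WT replicate 3 is the bluest column, and Ndufa4l2 is red in the 3 libraries of 6694c2 KO1.

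In complex I the largest differences were in accessory subunits of the membrane arm. Ndufb4 (chr16:37647170-37654453) measured 275, 228 and 325 TPM in 6419c5 WT and 126, 111 and 96.6 TPM in 6694c2 WT. The groups did not overlap, and the log2 difference was -1.30 ± 0.14 (SE, limma adjusted p = 3e-06). Ndufc1 differed by -1.23 ± 0.20 (limma adjusted p = 0.000141). Ndufs7, a core subunit that carries the last iron-sulfur cluster before coenzyme Q, was at 121, 125 and 158 TPM against 74.4, 68.0 and 47.2 TPM, a difference of -1.09 ± 0.15 (limma adjusted p = 3.34e-05). Other core subunits were also lower, among them Ndufs1 by -0.89, Ndufs3 by -0.75 and Ndufs8 by -0.70. Among the 12 that did not pass, Ndufa5, Ndufa6, Ndufb6 and Ndufs4 had log2 differences between 0.11 and 0.25. The exons of Ndufb4 have a near-identical copy elsewhere in the genome, so reads could have been split.

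In complex II the subunits did not move alike. Sdhb (chr4:140961203-140979193), the iron-sulfur subunit, measured 200, 183 and 197 TPM in 6419c5 WT and 117, 104 and 72.7 TPM in 6694c2 WT, a log2 difference of -1.0 ± 0.12 (limma adjusted p = 1.25e-05). The membrane anchors followed with Sdhc (chr1:171127165-171150603) at -0.73 ± 0.12 and Sdhd (chr9:50596357-50603812) at -0.48 ± 0.07 (limma adjusted p = 0.000155 and 6.76e-05). Sdha (chr13:74322254-74350280), the flavoprotein that oxidises succinate, measured 121, 96.3 and 114 TPM in 6419c5 WT and 121, 121 and 138 TPM in 6694c2 WT. Its groups overlapped and its difference of 0.20 ± 0.09 did not pass (limma adjusted p = 0.0926). Under the 3 rescalings Sdha was called higher in 6694c2 WT, by 0.28 to 0.42, and without 6419c5 WT replicate 1 by 0.27. Without 6694c2 WT replicate 3 its difference was 0.14 and not called.

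In complex III the largest difference was in a small accessory subunit. Uqcr11 (chr10:80402997-80406830) measured 421, 448 and 529 TPM in 6419c5 WT and 234, 247 and 96.6 TPM in 6694c2 WT, a log2 difference of -1.38 ± 0.25 (limma adjusted p = 0.000392). The lowest of these values was replicate 3 again; the other 2 were also under every 6419c5 WT value, and without replicate 3 the difference was -0.95, smaller than that of Ndufb4 at -1.20. Uqcrq and Uqcr10, also small subunits, differed by -1.04 ± 0.18 and -1.03 ± 0.16. The catalytic Rieske protein gene Uqcrfs1 did not pass, at 0.12 ± 0.11, nor did the core protein gene Uqcrc1 at -0.20 ± 0.08, while the other core protein gene Uqcrc2 was lower by -0.48 ± 0.11. Uqcrb was too variable to place: its replicate 2 values were 25.4 TPM in 6419c5 WT and 20.7 TPM in 6694c2 WT, whereas the other 4 WT values ran from 103 to 233 TPM. It has 3 near-identical copies in the annotation, and the share of its reads that they took was not tested.

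In complex IV the differences were in the common isoforms of structural subunits. Cox6a1 (chr5:115345642-115348981) measured 994, 1105 and 1287 TPM in 6419c5 WT and 638, 528 and 372 TPM in 6694c2 WT, a log2 difference of -1.16 ± 0.15 (limma adjusted p = 1.38e-05). Cox6b1, on the intermembrane side, differed by -0.89 ± 0.14, Cox5b by -0.76 ± 0.18, Cox4i1 by -0.54 ± 0.14 and Cox7a2 by -0.43 ± 0.12. The call for Cox4i1 was lost with median-of-ratios scaling and with the macrophage index as a covariate (limma adjusted p from 0.0012 to 0.17 over its 28 alternatives), and that for Cox7a2 in 6 of 28. Cox8a, Cox7c, Cox7a2l and Ndufa4 did not pass, with log2 differences of -0.27, -0.07, -0.18 and 0.05.

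Related mitochondrial genes in the nucleus were also lower in 6694c2 WT, while the hypoxia list went the other way. Of 18 ATP synthase genes 13 were lower and none higher (median -0.74), with Atp5o at -1.26 and Atp5g1 at -1.38. Assembly factors were lower for complex I in 11 of 15 (1 higher), complex III in 3 of 5, complex IV in 13 of 24 and complex II in 1 of 4; Surf1 and Cox17, which help build complex IV, differed by -1.18 and -1.35. Of the carriers and subunits that the symbols miss, Cyc1, the cytochrome c1 of complex III, differed by -0.70 and Ndufab1 by -0.79, whereas cytochrome c, Cycs, did not pass at -0.21. Mitochondrial ribosomal proteins were lower in 50 of 78 and higher in 2 (median -0.46), and enzymes of the citric acid cycle and pyruvate dehydrogenase in 8 of 16, with 2 higher. Coenzyme Q synthesis genes were lower in 7 of 13, among them Pdss2 at -1.49 and Coq9 at -1.24. Under the 3 rescalings the ATP synthase count stayed at 13 lower, while complex IV assembly factors had 5 to 12 lower, complex I assembly factors 6 to 10, and mitochondrial ribosomal proteins 25 to 45.

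Cytosolic ribosomal proteins differed in the opposite direction, with 26 of 83 higher and 6 lower (median 0.19), with 43 higher and 1 lower under median of ratios, 23 higher and 13 lower under quantile normalization, and 48 higher and 4 lower without 6694c2 WT replicate 3. All 12 hypoxia targets were higher in 6694c2 WT (median 1.09), under each rescaling too, including Slc2a1, a glucose transporter, at 2.01, Car9 at 1.42 and Pdk1, the kinase that inhibits pyruvate dehydrogenase, at 0.85. Of 15 regulators of mitochondrial biogenesis 4 were lower, among them Ppargc1b at -1.41 and Tfam, which packages mitochondrial DNA, at -0.74, and 1 was higher, Nrf1 at 0.39; with median-of-ratios scaling these counts were 3 and 3. Members with an NRF1 match in the promoter window were lower in 6 of 11, those without in 24 of 39; for the GABP motif the counts were 8 of 11 and 22 of 39. Cell type markers also differed in this comparison. Of 10 epithelial tumor markers 8 were lower and 1 higher (median -1.51), and 4 of 7 neutrophil markers were lower (median -1.20). Of 10 macrophage genes 4 were lower (median -2.26), and the list summed to 1502 to 8042 TPM in 6419c5 WT and 308 to 1949 TPM in 6694c2 WT. Their part in the subunit differences was not tested beyond a fit with the macrophage index as a covariate, in which 28 members were lower and none higher.

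**Figure D3:**
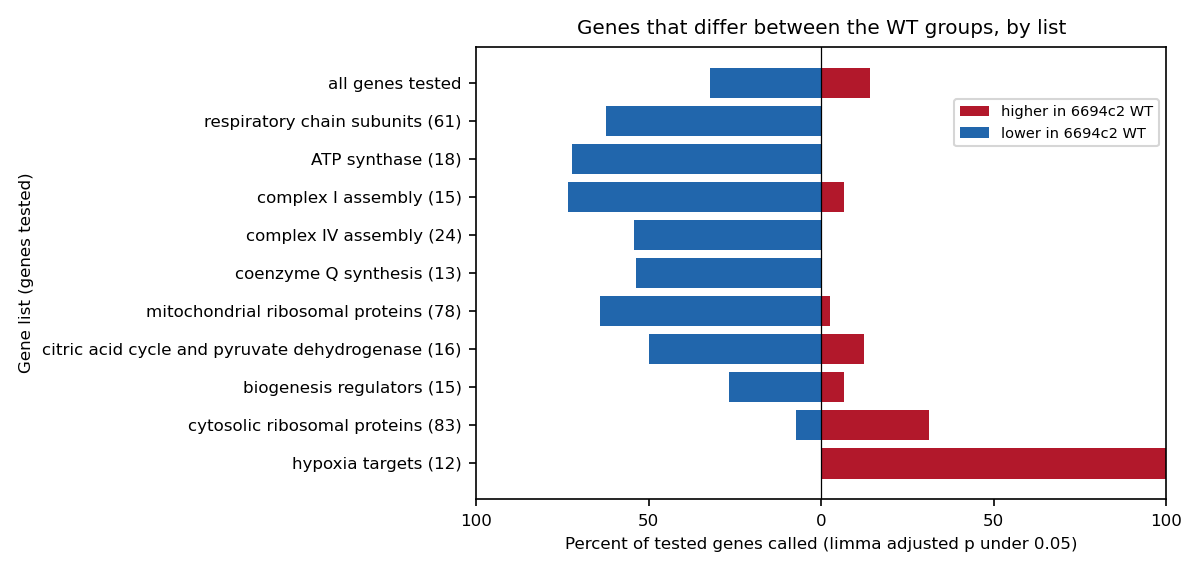
Percent of the tested genes of each list (y axis, number tested in parentheses) that were higher (red, to the right) or lower (blue, to the left) in 6694c2 WT than in 6419c5 WT by limma with an adjusted p under 0.05. The bars of the subunits (38 of 61 lower), ATP synthase (13 of 18) and mitochondrial ribosomal proteins (50 of 78) reach further left than that of all genes (32.2%), those of the biogenesis regulators and cytosolic ribosomal proteins do not, and the hypoxia targets (12 of 12 higher) reach furthest right.

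In 6694c2 a part of the set was higher in the knockout clones than in WT as analysed. Averaged over the clones, 18 of 61 members rose and none fell (limma adjusted p under 0.05), where 14.7% of all genes rose and 5.79% fell. They were 11 in complex I, 1 in complex II, 1 in complex III and 5 in complex IV. The members' median was 0.32, against 0.15 for all genes. All 6 knockout values lay above all 3 WT values for 12 members and below them for 1, against 13.2% and 4.89% of all genes. Of these 18 genes 13 were among the 38 that were lower in 6694c2 WT than in 6419c5 WT, and both counts use the same 6694c2 WT libraries.

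The count rested strongly on the WT libraries and on the scaling. Without 6694c2 WT replicate 3 it was 8 higher and 1 lower, and without 6694c2 WT replicate 1 it was 29 higher. The shares of all genes called without these libraries are not given here, so these counts alone do not compare the members with other genes. Median-of-ratios scaling moved the median of all genes to -0.03 and gave 5 members higher and 2 lower, where 7.66% of all genes rose and 13.4% fell. Quantile normalization and removal of the 20 most abundant genes each gave 13 higher and 2 lower. Without WT replicate 3 the members' median was 0.09, below the 0.18 of all genes, so the shift of the set above other genes rested on that library. Of the 18 calls 3 held in all 28 alternatives: Ndufa5, Ndufs5 and Ndufv2.

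Ndufa5 (chr6:24518666-24528013), an accessory subunit of the complex I matrix arm, measured 173, 124 and 117 TPM in 6694c2 WT. It measured 196, 193 and 215 TPM in KO1 and 215, 221 and 224 TPM in KO2. Every knockout value was above every WT value, and the log2 change over both clones was 0.63 ± 0.15 (SE, limma adjusted p = 0.00922). It was not called lower in 6694c2 WT than in 6419c5 WT. In 6419c5 the values were 135, 82.9 and 132 TPM in WT, 149, 147 and 122 in KO1 and 125, 158 and 144 in KO2, which overlap.

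Ndufs5 (chr4:123712710-123718202), an accessory subunit of the membrane arm, measured 120, 92.1 and 86.8 TPM in 6694c2 WT. The knockout values were 146, 147 and 163 TPM in KO1 and 148, 143 and 142 TPM in KO2, all above WT. The log2 change was 0.58 ± 0.11 (limma adjusted p = 0.00158). In 6419c5 the group means were 126, 131 and 123 TPM for WT, KO1 and KO2. The difference between the lines' knockout effects was 0.56 ± 0.15 (limma adjusted p = 0.0322), 1 of only 2 such differences among the members (0 to 8 when each library was left out), where 5.78% of all genes had a greater and 2.93% a smaller effect in 6694c2. Ndufs5 shares near-identical sequence with the gene BC002163, which measured 0 to 15.7 TPM in 6694c2 and did not pass in any of the 11 comparisons.

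The other members that rose most in 6694c2 were a mixture of roles. Ndufa1, a small membrane subunit of complex I encoded on the X chromosome, measured 81.9, 53.5 and 36.6 TPM in WT, 113, 100 and 127 in KO1 and 80.1, 98.1 and 98.5 in KO2. The KO2 values overlapped those of WT, and the change over both clones was 0.89 ± 0.23 (limma adjusted p = 0.0143). Cox6c rose by 0.71 ± 0.18 and Cox5a by 0.47 ± 0.12 in complex IV, and Uqcrh, the hinge protein of complex III, by 0.39 ± 0.11. The calls of all 4 of these genes were lost without WT replicate 3, and those of Ndufa1, Cox5a and Uqcrh also under median-of-ratios scaling. Sdhb rose from 117, 104 and 72.7 TPM to 141, 138 and 141 TPM in KO1 and 138, 134 and 126 TPM in KO2, with no overlap, a change of 0.50 ± 0.11 (limma adjusted p = 0.00446). That call was lost under median-of-ratios scaling (adjusted p = 0.12) and held in the other 27 alternatives, where the lowest limma adjusted p was 0.00085.

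**Figure D4:**
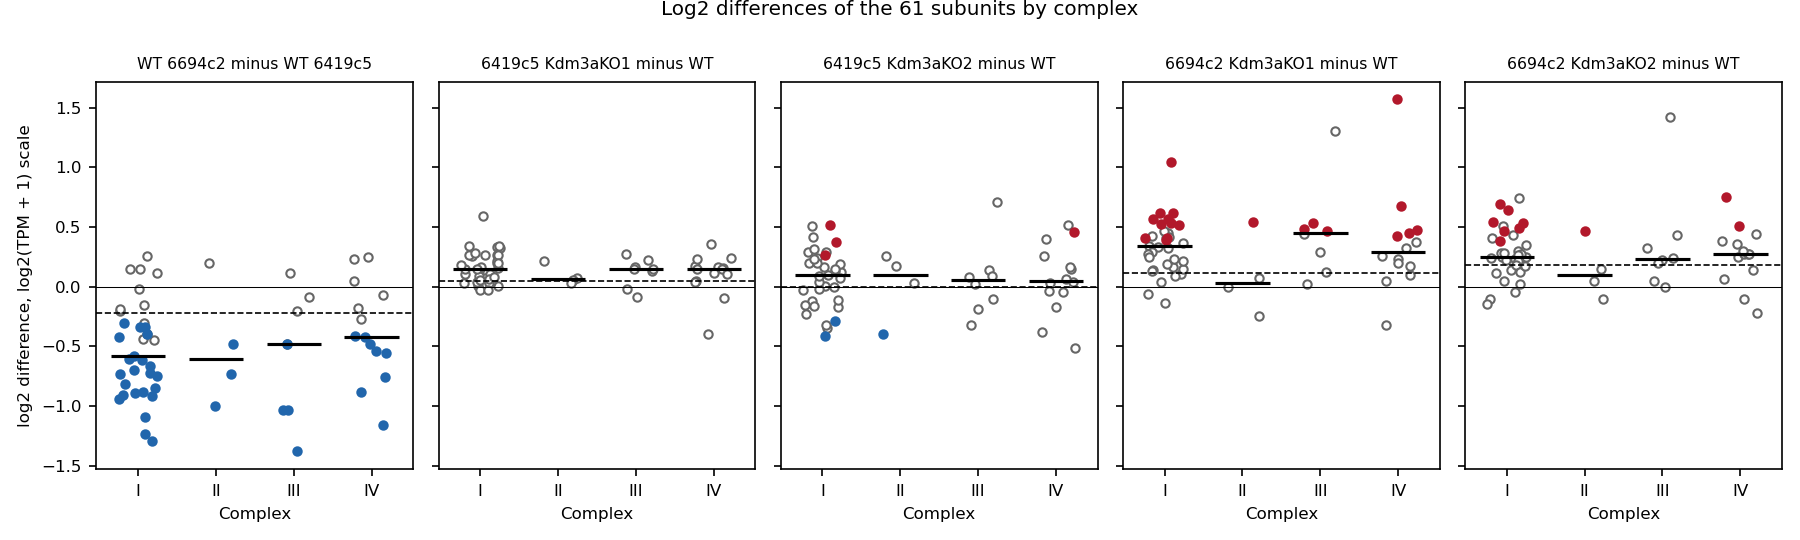
Log2 difference of each subunit gene (points) by complex (x axis) for the WT comparison and the 4 clones, on the log2(TPM + 1) scale; filled points passed limma at an adjusted p under 0.05 (red higher, blue lower), short lines are medians of the complex, and the dashed line is the median of all genes tested. The WT panel holds 38 blue points and no red one, and the 6694c2 panels hold 20 and 10 red points.

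The clones of 6694c2 gave 20 members higher in KO1 and 10 in KO2, with none lower, where 14.7% and 10.6% of all genes rose and 7.01% and 3.94% fell. The medians were 0.33 in KO1, against 0.11 for all genes, and 0.25 in KO2, against 0.18. Non-overlapping higher values were found for 24 members in KO1 and 18 in KO2, where 24.7% and 24.0% of all genes had them, and 1 member lay wholly below WT in each, against 11.1% and 8.06%. KO2 minus KO1 gave no member higher and 1 lower, where 5.27% of all genes were higher and 4.26% lower; it gave 4 lower without 6694c2 WT replicate 3 and none without KO2 replicate 1 or 2. Without WT replicate 3 the counts were 6 higher and 1 lower in KO1 and 4 higher and 2 lower in KO2, and without WT replicate 1 they were 29 and 21 higher. Leaving out a library of the clone gave 7 to 10 higher for KO1 and 1 to 5 higher for KO2, and leaving out WT replicate 2 gave 13 and 4. For KO1, leaving out 6419c5 KO2 replicate 3 or replicates 1 or 2 of 6694c2 KO2 gave 13. With median-of-ratios scaling the counts were 5 higher and 1 lower in KO1 and none higher and 2 lower in KO2.

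Cell type markers moved with both clones. In KO1, 8 of 10 macrophage genes (median 2.88), 5 of 7 neutrophil (3.14), 3 of 4 T and NK cell (1.74), 6 of 9 endothelial and all 9 tested fibroblast genes (2.20) were higher than in WT, while 4 of 10 epithelial tumor and 2 of 4 erythroid genes were lower. In KO2, 2 of 4 T and NK cell genes and 1 of 7 neutrophil genes were higher, and 4 of 10 epithelial tumor, 2 of 4 erythroid (median -2.31) and 3 of 12 immediate early and dissociation genes were lower. The macrophage list summed to 3586 to 6625 TPM in KO1, 570 to 3638 in KO2 and 308 to 1949 in WT, and no macrophage gene passed in KO2. With the macrophage index as a covariate 3 members rose in KO1 and 11 in KO2. The list did not overlap between KO1 and WT, so that fit cannot tell the macrophage level from the clone. For Sdhb in KO1 the change was 0.54 as analysed. In that fit it was 0.45 and not called (limma adjusted p = 0.069). The part of the other lists in either result was not tested.

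In 6419c5 few of the members differed between the knockout clones and WT. Over both clones 2 of 61 rose and none fell, where 3.97% of all genes rose and 3.40% fell, and the members' median was 0.09 against 0.01. The 2 genes were Cox7a2l and Ndufv2. The count was 1 without 6419c5 WT replicate 1 or 2, KO1 replicate 1 or KO2 replicate 2, and 4 higher with 1 lower without 6694c2 WT replicate 3. All 6 knockout values lay above all 3 WT values for 5 members and below them for none, against 4.60% and 2.60% of all genes. KO1 alone had no called member by limma, with 6 at an unadjusted p under 0.05, where 3.14% of all genes rose and 1.65% fell; 1 was called without 6694c2 WT replicate 2 and 2 without replicate 3 of that group. Its 3 values lay above WT for 9 members and below WT for none, against 13.1% and 5.82% of all genes. KO2 had 4 higher and 3 lower, where 7.97% and 11.0% of all genes did. In KO2 all 10 macrophage genes (median -3.14), 11 of 12 immediate early and dissociation genes (-1.57) and 6 of 10 epithelial tumor markers (-1.23) were also lower than in WT. With the macrophage index as a covariate 7 members were higher and none lower. The macrophage list did not overlap between KO2 (384 to 620 TPM) and WT (1502 to 8042 TPM). That fit therefore cannot tell the macrophage level from the clone, and the part of the other lists was not tested. Between 6419c5 WT and KO2, 11 members lay wholly above and 7 wholly below WT, against 15.8% and 20.3% of all genes. Leaving out 6419c5 KO2 replicate 1 or 3 gave 2 higher and 1 lower in KO2, leaving out KO2 replicate 2 or WT replicate 2 gave 1 and 3, and leaving out 6694c2 WT replicate 3, which enters only the shared spread, gave 8 and 6.

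Cox7a2l (chr17:83501918-83517330), also named SCAF1, helps join complexes III and IV into supercomplexes. It measured 414, 378 and 382 TPM in 6419c5 WT, 448, 491 and 445 in KO1 and 517, 552 and 546 in KO2. The knockout values were all above WT and KO2 lay above KO1. The KO2 change was 0.46 ± 0.09 (limma adjusted p = 0.00186) and was called in all 28 alternatives, and the change over both clones was 0.35 ± 0.07 (limma adjusted p = 0.00797), a call lost under median-of-ratios scaling and without the 3 libraries. In 6694c2 the values were 370, 376 and 293 TPM in WT, 392, 382 and 412 in KO1 and 379, 387 and 371 in KO2, and no call was made. The difference of the effect between lines was not called either as analysed. Without 6694c2 WT replicate 3 that difference was -0.30 and called (limma adjusted p = 0.025). A near-identical copy of this gene exists in the annotation.

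Ndufv2 (chr17:66078638-66101559), a core subunit of the NADH-oxidising tip of complex I, was the only member that rose in the knockouts of both lines. In 6419c5 it measured 75.3, 59.5 and 79.8 TPM in WT, 105, 86.3 and 81.7 in KO1 and 92.8, 119 and 96.5 in KO2, all 6 above WT. In 6694c2 it measured 61.3, 50.6 and 49.7 TPM in WT, 74.8, 75.1 and 82.4 in KO1 and 72.3, 79.0 and 72.2 in KO2, again all above WT. The changes were 0.43 ± 0.11 and 0.49 ± 0.11 (limma adjusted p = 0.0279 and 0.00659). The 6419c5 call was lost when 6419c5 WT replicate 1 or 2, KO1 replicate 1 or KO2 replicate 2 was left out, with a highest adjusted p of 0.17 and a lowest of 0.011 over its 28 alternatives.

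The clones of 6419c5 differed from each other in 8 members, 2 higher and 6 lower in KO2 than in KO1, where 7.38% of all genes were higher and 18.9% lower. Among the lower ones were Cox5b at -0.68, Ndufb3 at -0.61, Ndufs7 at -0.49, Sdhc at -0.46 and Ndufa10 at -0.45, and the higher ones were Ndufa9 at 0.26 and Ndufa4 at 0.80. All 3 KO2 values lay above those of KO1 for 8 members and below them for 19, against 15.7% and 28.3% of all genes. Of the 8 called, Ndufa10 and Sdhc were also lower in KO2 than in WT, by -0.42 ± 0.09 and -0.40 ± 0.12, and Ndufa9 was higher by 0.27 ± 0.08. Sdhc measured 224, 204 and 256 TPM in WT, 242, 241 and 225 in KO1 and 162, 189 and 165 in KO2, so that KO2 stood below both other groups. The macrophage list did not overlap between these clones, at 2586 to 8753 TPM in KO1 and 384 to 620 TPM in KO2, with all 10 of its genes lower in KO2. Also lower in KO2 than in KO1 were 11 of 12 immediate early and dissociation genes (median -1.47), 7 of 7 skeletal muscle, 6 of 9 fibroblast and 5 of 10 epithelial tumor genes, whose part was not tested. With the macrophage index as a covariate no member was lower and 3 were higher, but without overlap in the list that fit cannot tell it from the clone. Without 6694c2 WT replicate 3 the counts were 5 higher and 12 lower; leaving out 6419c5 KO1 replicate 2 or 3 gave 1 higher and 4 lower, and leaving out KO2 replicate 1 gave 1 and 3.

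Over both lines, with each line weighted equally, 17 members rose and none fell, where 12.5% of all genes rose and 5.89% fell. The median was 0.21, against 0.08 for all genes. Ndufa5 and Ndufv2, each with a change of 0.46 (limma adjusted p = 0.00728 and 0.000845), were called in all 28 alternatives, and Ndufa11 (0.47 ± 0.10) in 26. No member had all 12 knockout values on 1 side of all 6 WT values, a pattern found in 0.641% of all genes above and 0.149% below. Median-of-ratios scaling left 2 members higher and 1 lower, where 6.79% of all genes rose and 10.5% fell. The count was 7 to 11 without 6419c5 WT replicate 1 or 2, 6419c5 KO1 replicate 2, 6419c5 KO2 replicate 2 or 3, 6694c2 WT replicate 3 (9 higher and 1 lower), 6694c2 KO1 replicate 3, or 6694c2 KO2 replicate 1 or 2, and 29 without 6694c2 WT replicate 1.

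In the 6694c2 knockouts Sdha was the only complex II subunit with a negative change. The 4 subunits ran there from -0.17 (Sdha) to 0.50 (Sdhb), with a median of 0.06, and neither Sdhc nor Sdhd was called. In 6419c5 they ran from -0.17 (Sdhc) to 0.23 (Sdha). Sdha measured 125, 132 and 127 TPM in 6419c5 KO1 and 121, 146 and 129 TPM in KO2, against 121, 96.3 and 114 TPM in WT. In 6694c2 it measured 115, 104 and 102 TPM in KO1 and 117, 119 and 117 TPM in KO2, all below the 121, 121 and 138 TPM of WT. Neither line passed alone, with changes of 0.23 and -0.17, but the difference between them did, at -0.41 ± 0.11 (limma adjusted p = 0.0376). In 6694c2 Sdha was thus the member that lay wholly below WT, while Sdhb lay wholly above it. Under median-of-ratios scaling the 6694c2 change was -0.37 and called, under quantile normalization -0.27, and without the 20 most abundant genes -0.28, both called. Without 6694c2 WT replicate 3 it was -0.11 and not called (limma adjusted p = 0.355). Nor was it called with the macrophage index as a covariate (-0.15) or with a replicate block (-0.17).

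**Figure D5:**
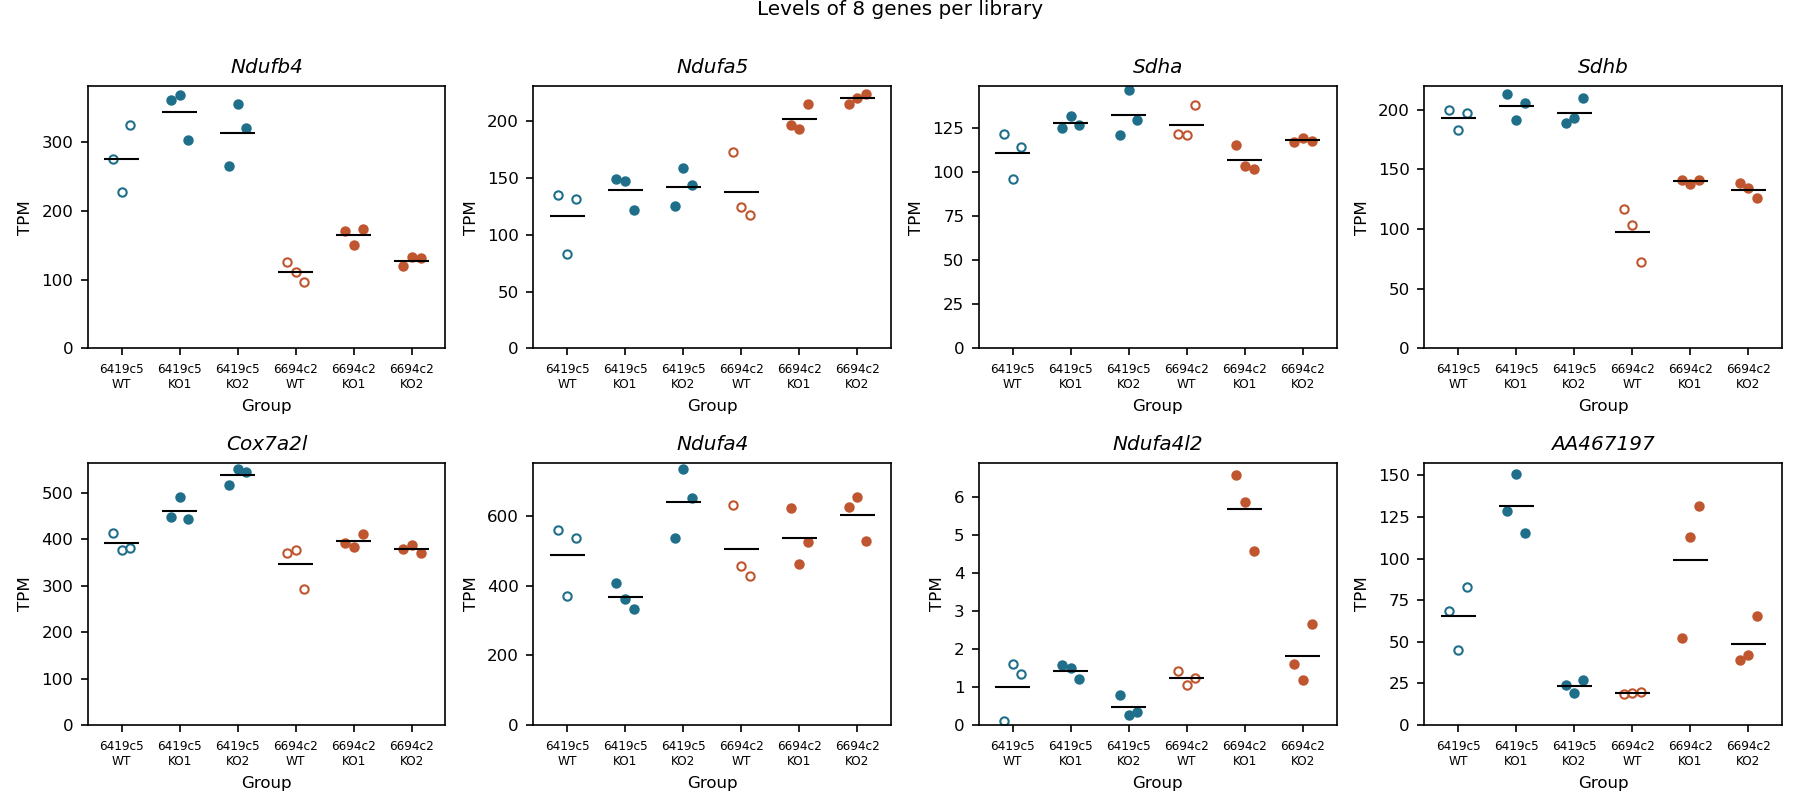
TPM (y axes, from 0) of 7 subunit genes and of AA467197, a relative of Ndufa4, in the 6 groups (x axes); each point is a library, open for WT and filled for knockout, and the line is the mean of 3 libraries. Sdhb and Ndufb4 are low in all 6694c2 groups while Sdha is not, Cox7a2l is highest in 6419c5 KO2, and Ndufa4l2 exceeds 4 TPM in 6694c2 KO1 only.

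Ndufa4 and its relatives are the members best known for swapping. The Ndufa4 protein sits in complex IV; Ndufa4l2 is a hypoxia-induced relative, and AA467197 (Nmes1) encodes another that is described as replacing Ndufa4 in inflammation. Ndufa4 (chr6:11900292-11907497) measured 560, 371 and 539 TPM in 6419c5 WT, 409, 362 and 332 in KO1 and 539, 735 and 652 in KO2. KO2 was higher than KO1 by 0.80 ± 0.18 (limma adjusted p = 0.00548), while neither clone passed against WT. AA467197 ran the opposite way, with 68.3, 45.2 and 82.8 TPM in 6419c5 WT, 129, 151 and 115 in KO1 and 24.1, 19.1 and 27.3 in KO2. In 6694c2 it measured 18.4 to 19.8 TPM in WT, 52.4, 113 and 132 in KO1 and 39.3, 42.0 and 65.4 in KO2, and was higher in the knockouts by 1.73 (limma adjusted p = 0.00028). The macrophage list summed to 2586 to 8753 TPM in 6419c5 KO1 and 384 to 620 TPM in KO2, without overlap. With its index as a covariate Ndufa4 did not pass between the clones (limma adjusted p = 0.14, the highest of its 28 alternatives, whose lowest was 0.00074). Its difference in that fit was 0.70.

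Ndufa4l2 (chr10:127514967-127517154) was the lowest member and the one with the largest change. It measured 6.60, 5.89 and 4.58 TPM in 6694c2 KO1 and 0.104 to 2.65 TPM in the other 15 libraries. Its change in KO1 was 1.57 ± 0.28 on the log2(TPM + 1) scale (limma adjusted p = 0.00134), which understates the change of a gene this low, a call that held in all 27 alternatives. KO2 was lower than KO1 at -1.27 ± 0.28 (limma adjusted p = 0.0129), lost in 4 of 27. It was not among the genes that were higher in 6694c2 WT, where all 12 hypoxia targets were. Of 6 tested markers of pericytes and smooth muscle 2 were also higher in KO1 (Acta2 by 1.91, Notch3 by 0.89) and 1 was lower (Cspg4 by -0.77); the list summed to 67.4 to 89.8 TPM in KO1, 42.4 to 53.9 in WT and 52.1 to 78.7 in KO2. Their part in the Ndufa4l2 result was not tested. An exon of Ndufa4l2 overlaps Shmt2 on the other strand. Shmt2 measured 35.8 to 63.0 TPM in 6694c2 and rose by 0.44 in KO1 and by 0.43 in KO2. Whether the counting used strand is not given in the sources used here.

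The tissue isoforms of complex IV were near 0 except Cox7a1. The common forms Cox4i1, Cox6a1, Cox6b1, Cox7a2, Cox7b and Cox8a had means of 913, 888, 525, 112, 102 and 783 TPM, and their partners Cox4i2, Cox6a2, Cox6b2, Cox7b2 and Cox8b had means of 0.357, 0.601, 0.595, 0.113 and 0.348 TPM, while Cox8c was listed at 0 in all 18 libraries. Cox7a1, the heart and muscle form of Cox7a2, averaged 9.09 TPM, ranged from 4.20 to 15.8 TPM without order by group and passed in no comparison. The highest values of the muscle forms Cox6a2 (1.91 and 2.82 TPM) and Cox8b (2.0 TPM in replicate 2) were in 6419c5 KO1 replicates 2 and 3, the libraries in which skeletal muscle markers summed to 150 and 87.9 TPM against 22.9 to 51.0 TPM in the other 16. The highest Cox4i2 value, 3.73 TPM, was in 6694c2 KO1 replicate 1, where endothelial markers summed to 270 TPM against 21.1 to 98.2 TPM elsewhere. Whether these low values came from such cells was not tested.

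Genes around the chain are given here as counts in the knockouts. In 6694c2, 8 of 18 ATP synthase genes rose and none fell (median 0.37), led by Atp5j2 at 0.42 and Atp5h at 0.38; the count was 1 without WT replicate 3 and 0 to 3 under the rescalings. Assembly factors rose in 4 of 15 for complex I, 2 of 24 for complex IV and 1 of 4 for complex II, and none of 5 for complex III. Under the 3 rescalings none of these assembly factors rose, and without WT replicate 3 only 1 did, in complex IV, where 1 was also lower. For complex I, 1 was lower under median of ratios and 2 under quantile normalization. Coenzyme Q genes rose in 2 of 13, the citric acid cycle list in 2 of 16, with Cs, citrate synthase, at 0.40, and mitochondrial ribosomal proteins in 15 of 78, with 1 lower; of all genes 14.7% rose. Under the rescalings the ribosomal count was 3 to 8 higher and 2 or 3 lower. That of coenzyme Q genes was 0 to 2 higher with 1 lower, and that of the citric acid cycle 0 or 1 higher with 0 or 1 lower. Without WT replicate 3, 8 ribosomal proteins were higher and 4 lower. Of the regulators Tfam alone changed among 15, rising by 0.67 (limma adjusted p = 0.0041). Under the 3 rescalings 1 regulator was higher and 1 or 2 were lower. Among 12 hypoxia targets 4 fell, Ak4 at -1.85, Car9 at -1.15, Slc2a1 at -0.45 and Vegfa at -0.45, and 5 or 6 under the rescalings. In 6419c5 the corresponding counts were 1 of 18 ATP synthase genes (Atp5a1 at 0.22), 1 of 24 complex IV assembly factors (Higd2a at 0.44), 1 of 78 mitochondrial ribosomal proteins and 1 of 12 hypoxia targets (Egln3 at 0.36) higher, and none of the complex I, II or III assembly, coenzyme Q, citric acid cycle or regulator lists.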

How the data were processed

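RNA of sorted tumor cells was sequenced in 18 libraries of 6 groups, 3 per group. The values are TPM as deposited by the authors in 1 table of 24493 genes; Salmon and the build mm10 are named per the submitters' processing notes, and the Salmon version is not given in the sources used here. TPM keeps no read depth, so depth is unknown and no counting interval is given; each library summed to the same total, and 12213 to 13590 genes reached 1 TPM. The deposited table's name mentions a batch, but the labels describe none, and whether the values were adjusted for one is not given in the sources used here.

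The 13422 genes whose mean reached 1 TPM were fitted as log2(TPM + 1) with limma 3.58.1 in R 4.3.3, using group means over all 18 libraries (12 residual degrees of freedom) and a trended variance. Changes were called at a Benjamini-Hochberg adjusted p under 0.05 over all 13422 genes, in 11 comparisons, and the fit was tested on simulated data. Positions are from GENCODE M21 (GRCm38) and promoters from RefSeq (GRCm38.p6). Copies were searched with blastn 2.17.0 (at least 95% identity over at least 80% of a transcript and 200 bases).

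The members and the 25 gene lists were chosen with earlier results of these data known. Named were the complex II genes, isoform pairs, Cox7a2l, the highest and lowest of each complex, genes at the threshold, Kdm3a, and up to 3 largest called rises and falls per complex and comparison; of other lists up to 4 genes, and a few further members chosen after their values were seen. A further 27 settings, and 1 added after seeing the data, changed the pseudocount, filter, scaling, covariates or libraries. Where a count under such a setting stands without the share of all genes, it shows only how the count moved. The counts cover all 61 members, and the values of 1 of them are not reported here.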

Additional observations from a re-analysis of the deposited data

Results flagged for a closer look

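The knockout effect of 2 subunit genes differed between the lines by the test of that difference. For Ndufs5 the effect in 6694c2 minus that in 6419c5 was 0.56 on the log2(TPM + 1) scale (limma adjusted p = 0.0322), with all 6 knockout libraries above WT in 6694c2 and overlapping groups in 6419c5. It was called in 16 of 28 alternatives, with limma adjusted p from 0.0075 to 0.15. For Sdha the difference was -0.41 (limma adjusted p = 0.0376), with all 6 knockout libraries below WT in 6694c2 and 5 of 6 above the highest WT value in 6419c5. It was called in 13 of 28 alternatives, with limma adjusted p from 0.00031 to 0.09.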

How the results depend on the processing

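Counts here add members called in either direction. That between the WT lines stayed within 1.5 times of 38 in every alternative, although the lower members alone fell to 24 with median of ratios, where 3 were higher. Other counts moved. In the knockouts over both lines (17 as analysed) it was 11 with no filter, 3 with median of ratios, 11 with quantile normalization, 11 without the 20 most abundant genes and 11 with a replicate block. In the 6419c5 knockouts (2) it was 6 with the macrophage covariate and 1 without the 3 libraries, and in the 6694c2 knockouts (18) 7 with median of ratios, 11 with the covariate and 11 without the 3 libraries. For 6419c5 KO1 (0) it was 1 with a pseudocount of 5. For 6419c5 KO2 (7) it was 11 without the 20 most abundant genes and 4 without the 3 libraries. For 6694c2 KO1 (20) it was 13 with no filter, 6 with median of ratios, 13 with the block, 3 with the covariate and 9 without the 3 libraries, and for 6694c2 KO2 (10) 2 with median of ratios, 4 with quantile normalization and 3 without the 3 libraries. KO2 against KO1 gave 3 in 6419c5 (8) with the covariate. In 6694c2 (1) it gave 0 with a pseudocount of 0.1, a minimum of 5 TPM or the covariate, and 2 with quantile normalization or without the 20 most abundant genes. The difference of effects (2) gave 1 with median of ratios, 0 with the block, 1 with the covariate and 0 without the 3 libraries.

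Leaving out each library in turn gave 7 to 29 over both lines, 1 to 5 in 6419c5, 9 to 29 in 6694c2, 0 to 2 for 6419c5 KO1, 3 to 14 for 6419c5 KO2, 7 to 29 for 6694c2 KO1, 1 to 21 for 6694c2 KO2, 4 to 17 and 0 to 4 between the clones of 6419c5 and 6694c2, 29 to 44 between the WT lines and 0 to 8 for the difference of effects.

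The log2 ratio of summed TPM to WT fell under median of ratios in 6694c2 KO1 from 0.33 to 0.16 (complex I), 0.08 to -0.092 (II), 0.40 to 0.22 (III) and 0.30 to 0.12 (IV). In KO2 it fell from 0.26 to 0.035, 0.12 to -0.11, 0.30 to 0.072 and 0.26 to 0.027. Without the 20 most abundant genes complex II gave -0.029 and 0.011. The causes were not tested.

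Replicate numbers did not pair the samples: 15 of 45 same-number correlations exceeded 0.1 (from -0.385 to 0.481), and the own number was best in 23 of 90 cases. With the replicate block the other counts were 36 between the WT lines, 15 in 6694c2, 2 in 6419c5, 5 for 6419c5 KO2, 7 for 6694c2 KO2, 0 for 6419c5 KO1, and 8 and 1 between clones.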
